A study of Mus musculus with 8 samples.

Results

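Cxcr5, Tcf7, Lef1, Bcl6, Id3, Bach2, Slamf6, Satb1 and Myb, a set of 9 genes tied to stem-like and follicular T cells, were followed in CD8 T cells sorted from mouse liver. They are 9 of 22609 genes counted, were chosen by symbol with earlier results of the same libraries known, and all 9 passed the filter on low counts. The libraries came from male C57BL/6J mice aged 6 weeks injected on day 0, 3 and 6 with an agonist anti-CD137 antibody, which stimulates a TNF receptor family member on activated T cells. Livers were collected on day 8. The CD11c+ group (CD11c+KLRG1+CD127- CD8 T cells, 4 libraries) was set against the CD11c- group (CD11c-KLRG1+CD127- CD8 T cells, 4 libraries), and every library came from antibody-treated mice. Both gates kept live CD45+ T cell receptor β+ CD8α+ cells and left out cells with MHC class II, NK1.1 or CD4. The labels do not say whether a library is a separate mouse, so spread between libraries may be technical.

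CXCR5 is the chemokine receptor that guides B cells and follicular helper T cells towards CXCL13 in lymphoid follicles, and a subset of CD8 T cells also carries it. TCF-1, the product of Tcf7, and its relative LEF1 are DNA-binding proteins of the Wnt pathway that hold T cells in a naive, memory or stem-like state and are lowered as CD8 T cells become short-lived effectors. KLRG1+CD127- cells are usually regarded as such effectors, so the stem-like genes are generally low in them.

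Across all genes, 5 of 10073 tested (0.0496%) passed an adjusted p of 0.05 by edgeR's quasi-likelihood test, 3 higher (0.0298%) and 2 lower (0.0199%) in CD11c+ cells. Cxcr5 was 1 of the 2 lower genes, and the other 8 genes described here were not called. The share of genes called was 0.461% of the 6947 genes to which DESeq2 gave an adjusted p (0.317% higher), and, of the 10073, 0.189% with limma voom and 0.109% with edgeR's newer quasi-likelihood setting (0.0893% higher). DESeq2 called 1 of the 4 members it gave an adjusted p, which left out Bcl6, Id3, Bach2, Satb1 and Myb, and each of the other tools called 1 of the 9. Because the genes were picked with this contrast known, their differences below are a description and carry no test. Library depth was 5090345 to 7093163 gene reads, with 10482 to 12581 genes detected by at least 1 read. Itgax, which encodes CD11c, lay at 198 to 357 CPM in CD11c+ libraries and 4.76 to 18.0 CPM in CD11c- libraries, where CPM are gene reads scaled by library size and TMM factors. The defining CD8 T cell transcripts were abundant in both subsets, with Cd8a at 1085 to 1237 CPM in CD11c+ libraries and 1022 to 1231 CPM in CD11c- libraries.

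Cxcr5 was the member that parted the subsets most. Its level was 16.8, 45.7, 26.9 and 23.1 CPM in CD11c+ replicates 1 to 4, against 149.8, 94.5, 156 and 97.4 CPM in CD11c- replicates 1 to 4. Every CD11c+ library lay below every CD11c- library, and the highest CD11c+ value was less than the lowest CD11c- value by more than the width of the CD11c+ range. The means were 28.1 CPM ± 12.5 in CD11c+ cells and 124 CPM ± 32.8 in CD11c- cells (SD, n = 4 each), with a log2 fold change of -2.14 (SE 0.30). Cxcr5 was the single gene of the 9 whose libraries did not overlap, a pattern that 1.85% of all tested genes showed in the same direction and 1.6% in the other. These values rest on 86 to 827 reads per library. Without CD11c+ replicate 1, 3 or 4, or CD11c- replicate 1, 3 or 4, Cxcr5 was no longer past the threshold, while its log2 fold change stayed between -1.96 and -2.25 in those 6 fits. In these bulk samples a lower level could be fewer CXCR5-bearing cells or less transcript in each cell, which cannot be told apart.

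Cxcr5 is also a B cell gene, and the B cell transcripts were therefore read beside it. The summed level of 13 B cell markers was 36.5 to 43.3 CPM in CD11c+ libraries and 25.6 to 45.6 CPM in CD11c- libraries. Ms4a1, which encodes CD20, did not exceed 1.78 CPM in CD11c+ or 1.76 CPM in CD11c- libraries. Pax5, the B lineage regulator, had no read in any CD11c+ library and at most 0.42 CPM in a CD11c- library. Most of the summed level came from Cd72 (20.3 CPM ± 6.52 in CD11c+ and 20.04 ± 3.97 in CD11c- cells, SD, n = 4 each) and Cd79b (6.94 CPM ± 1.83 in CD11c+ libraries and 6.35 ± 2.15 in CD11c- libraries). Of 5 B cell markers tested, edgeR and limma voom called 0, and 0 reached an unadjusted p of 0.05 by edgeR. Their log2 fold changes were above 0 for 5 and below 0 for 0, median 0.50, where the median of all tested genes was 0.01. The 3 of lowest p were Cd79a (3.50 CPM ± 2.80 in CD11c+ and 1.87 ± 1.45 in CD11c- libraries), Spib (2.99 ± 2.22 and 1.73 ± 1.47) and Cd22 (3.47 ± 2.38 and 2.46 ± 2.03). DESeq2 gave an adjusted p to 1 of the 5, Cd72, and did not call it. Cd4 reached at most 1.56 CPM in CD11c+ and 0.881 CPM in CD11c- libraries. Cxcl13, the ligand of CXCR5, had 0 to 0.156 CPM in CD11c+ and 0 to 0.280 CPM in CD11c- libraries.

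**Figure D1:**
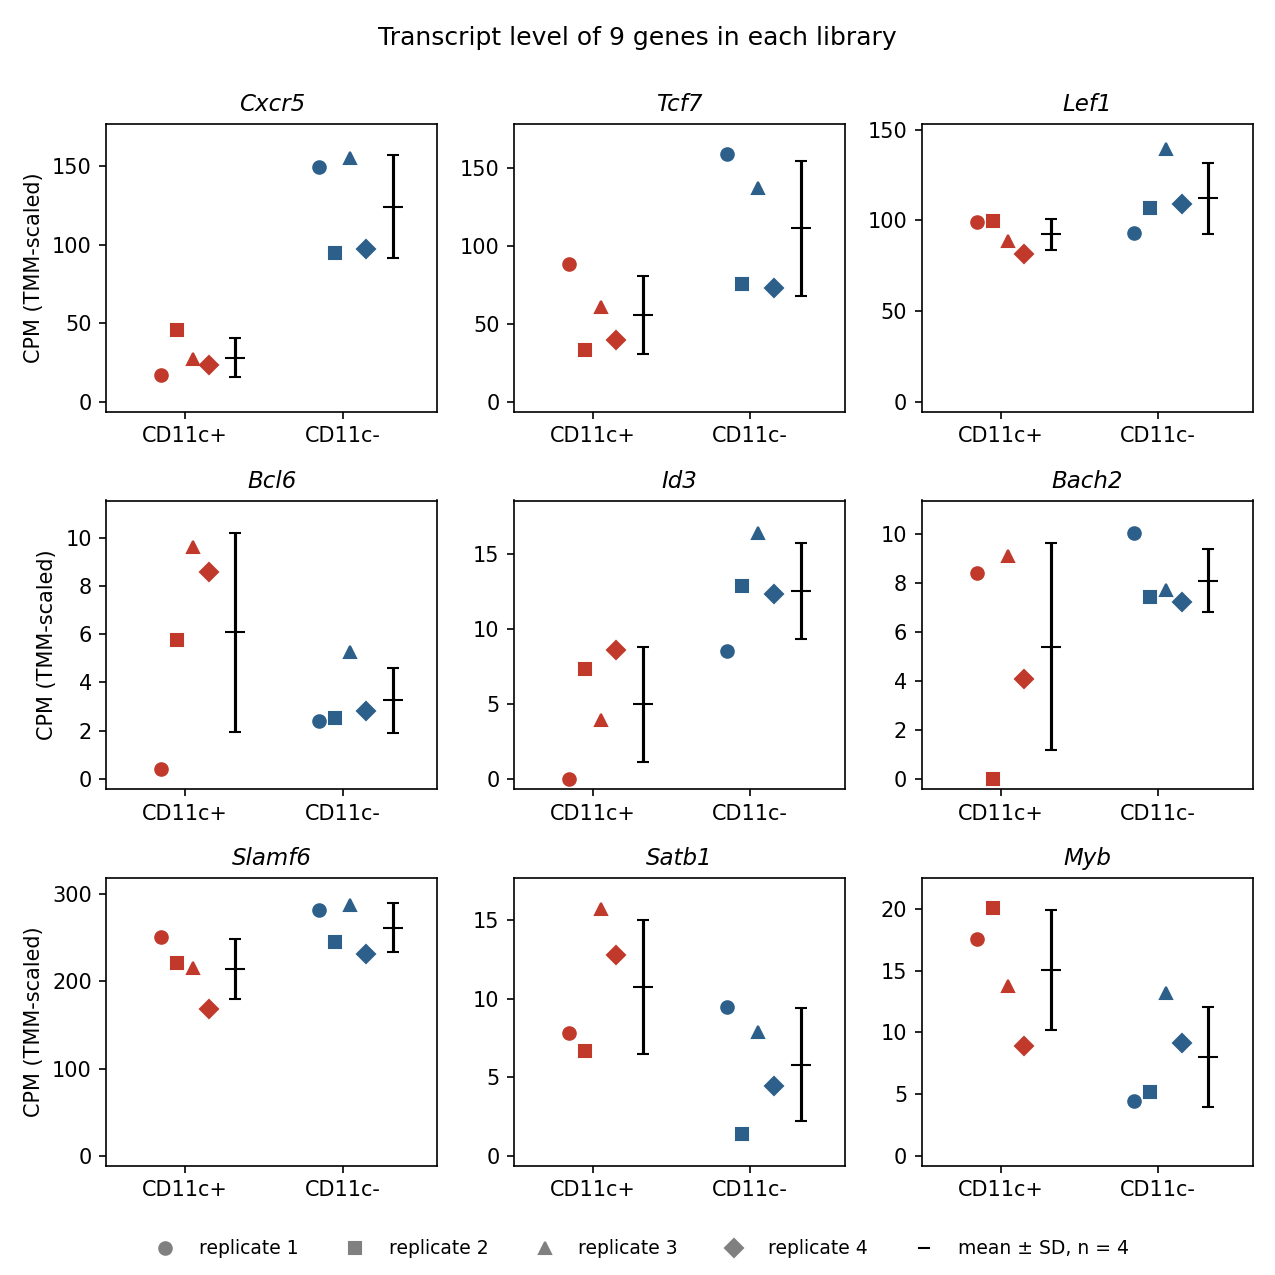
Transcript level (CPM, linear axis) of each of the 9 genes in the 4 CD11c+ and the 4 CD11c- libraries, with marker shape for the replicate number and black bars for mean ± SD. Cxcr5 is the panel in which all CD11c+ points (16.8 to 45.7 CPM) lie below all CD11c- points (94.5 to 156 CPM), and Bcl6, Satb1 and Myb are the panels with the higher mean in CD11c+ cells.

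Tcf7 and Lef1, paralogues with a shared kind of DNA-binding domain, both had lower mean levels in CD11c+ cells. Tcf7 stood at 88.6, 33.0, 60.6 and 39.4 CPM in CD11c+ replicates 1 to 4, against 159, 75.8, 138 and 73.1 CPM in CD11c- replicates 1 to 4. The subsets overlapped, since CD11c+ replicate 1 exceeded CD11c- replicates 2 and 4, and within each subset replicates 1 and 3 were the highest libraries. Set side by side by replicate number, Tcf7 was lower in the CD11c+ library in all 4 numbers, as were Cxcr5, Id3 and Slamf6. The CD11c- level of Tcf7 was 1.80 to 2.30 times its CD11c+ level, though the labels state no pairing. The log2 fold change of Tcf7 was -1.01 (SE 0.33), between 55.4 CPM ± 25.1 in CD11c+ and 111 CPM ± 43.6 in CD11c- cells (SD, n = 4 each). Lef1 was at 98.9, 99.9, 88.5 and 81.7 CPM in CD11c+ replicates 1 to 4, against 92.8, 107, 139 and 109 CPM in CD11c- replicates 1 to 4. Its libraries overlapped through CD11c- replicate 1, and its log2 fold change of -0.28 (SE 0.16) was the smallest of the 9. Both genes were read deeply, at 189 to 857 reads for Tcf7 and 497 to 764 for Lef1 per library.

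Slamf6, which encodes the homotypic SLAM receptor Ly108 found on stem-like and follicular T cells, was the most abundant of the 9 in CPM. It stood at 251, 222, 215 and 168 CPM in CD11c+ replicates 1 to 4, against 282, 245, 288 and 232 CPM in CD11c- replicates 1 to 4. Only CD11c+ replicate 1 reached into the CD11c- range. The log2 fold change was -0.29 (SE 0.14).

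Id3, an inhibitor of E protein transcription factors that marks memory precursor and follicular T cells, was low and lower on average in CD11c+ cells. It had 0, 7.33, 3.92 and 8.57 CPM in CD11c+ replicates 1 to 4, against 8.54, 12.9, 16.4 and 12.3 CPM in CD11c- replicates 1 to 4. The subsets met at their edges, where CD11c+ replicate 4 and CD11c- replicate 1 were within counting error of each other (55 and 46 reads). The 0 reads in CD11c+ replicate 1 allow up to 0.589 CPM (3 reads, counting error only). The log2 fold change was -1.33 (SE 0.79) with all libraries and -0.92 without CD11c+ replicate 1. Bach2, a repressor that restrains effector differentiation, had 8.41, 0, 9.09 and 4.05 CPM in CD11c+ replicates 1 to 4, against 10.03, 7.42, 7.71 and 7.22 CPM in CD11c- replicates 1 to 4. CD11c+ replicates 1 and 3 were within the CD11c- range, and the log2 fold change of -0.59 (SE 0.85) was -0.18 without CD11c+ replicate 2, the library at 0. The libraries with a 0 in Id3 or Bach2, CD11c+ replicates 1 and 2, had 10482 and 10892 genes with a read, among the 3 lowest counts of the 8 libraries. The part of this in the 0 values was not tested.

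Bcl6, Satb1 and Myb pointed the other way. Bcl6, the repressor that directs the follicular helper fate, had 0.391, 5.76, 9.62 and 8.57 CPM in CD11c+ replicates 1 to 4, against 2.41, 2.52, 5.27 and 2.82 CPM in CD11c- replicates 1 to 4. CD11c+ replicate 1, with 2 reads, was the lowest of the 8 libraries and the other CD11c+ libraries were the highest. Of these, CD11c+ replicate 2 was within counting error of CD11c- replicate 3 (33 and 28 reads). Satb1, a chromatin organiser of T cells, stood at 7.82, 6.63, 15.7 and 12.8 CPM in CD11c+ replicates 1 to 4, against 9.47, 1.40, 7.90 and 4.40 CPM in CD11c- replicates 1 to 4. CD11c+ replicates 3 and 4 were above every CD11c- library and the other CD11c+ libraries were within the CD11c- range. Myb, a transcription factor of progenitors and of stem-like memory CD8 T cells, stood at 17.6, 20.1, 13.7 and 8.89 CPM in CD11c+ replicates 1 to 4, against 4.46, 5.18, 13.2 and 9.16 CPM in CD11c- replicates 1 to 4. All but CD11c+ replicate 4 lay above the CD11c- range, though CD11c+ replicate 3 and CD11c- replicate 3 were within counting error of each other (77 and 70 reads). The log2 fold changes were 0.90 (SE 0.79) for Bcl6, 0.89 (SE 0.59) for Satb1 and 0.91 (SE 0.45) for Myb, each on 115 reads or fewer per library.

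RefSeq promoter windows (GRCm38.p6, 250 bases before to 50 after a start) were found for 8 of the 9 genes, 17 windows in all, some overlapping, and none for Cxcr5. They were searched on both strands for CTTTGA and CTTTGT, the core letters that TCF-1 and LEF1 bind, to see which of the genes carry them near a start. CTTTGA was in 3 of 17 windows (17.6%), of Lef1, Bcl6 and Bach2, against 16.0% of all 32851 windows, and CTTTGT in 5 (29.4%), of Lef1, Bcl6, Satb1 and Myb, against 18.7%. Satb1 enters with overlapping windows that hold the same CTTTGT site, which is thus counted more than once. The 3 windows with CTTTGA are shown because they hold TCF/LEF letters at genes of the set itself, with matches of either motif, or of its reverse complement, in capitals, and each reads 5′ to 3′ on the gene's strand.
Lef1 (chr3:131156044-131156343, plus strand): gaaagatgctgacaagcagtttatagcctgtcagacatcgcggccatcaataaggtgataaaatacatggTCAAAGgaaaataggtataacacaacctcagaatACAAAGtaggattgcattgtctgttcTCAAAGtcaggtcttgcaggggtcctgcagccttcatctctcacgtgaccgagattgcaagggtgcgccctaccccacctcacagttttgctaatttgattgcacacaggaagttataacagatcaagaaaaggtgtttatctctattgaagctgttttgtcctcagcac
Bcl6 (chr16:23981234-23981533, minus strand): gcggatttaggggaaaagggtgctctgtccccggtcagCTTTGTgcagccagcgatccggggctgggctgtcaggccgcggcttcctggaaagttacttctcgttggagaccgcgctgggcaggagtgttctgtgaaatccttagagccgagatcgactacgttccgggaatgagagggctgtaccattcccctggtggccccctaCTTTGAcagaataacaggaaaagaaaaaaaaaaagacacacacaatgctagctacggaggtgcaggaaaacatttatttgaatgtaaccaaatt
Bach2 (chr4:32417185-32417484, plus strand): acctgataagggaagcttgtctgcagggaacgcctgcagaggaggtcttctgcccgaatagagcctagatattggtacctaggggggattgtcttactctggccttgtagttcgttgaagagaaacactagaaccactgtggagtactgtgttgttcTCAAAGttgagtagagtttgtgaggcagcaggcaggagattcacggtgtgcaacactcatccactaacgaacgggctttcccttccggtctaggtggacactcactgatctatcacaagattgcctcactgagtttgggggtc
Lef1 carried 3 matches in the window shown and Bcl6 2. The other windows of Lef1 and Bcl6, including those nearest the annotated start of each gene, carried neither motif. Both Tcf7 windows carried neither motif as well. A match says only that the letters are there. Among these 3 genes the log2 fold changes in CD11c+ over CD11c- cells were -0.28 for Lef1, 0.90 for Bcl6 and -0.59 for Bach2, of both signs.

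**Figure D2:**
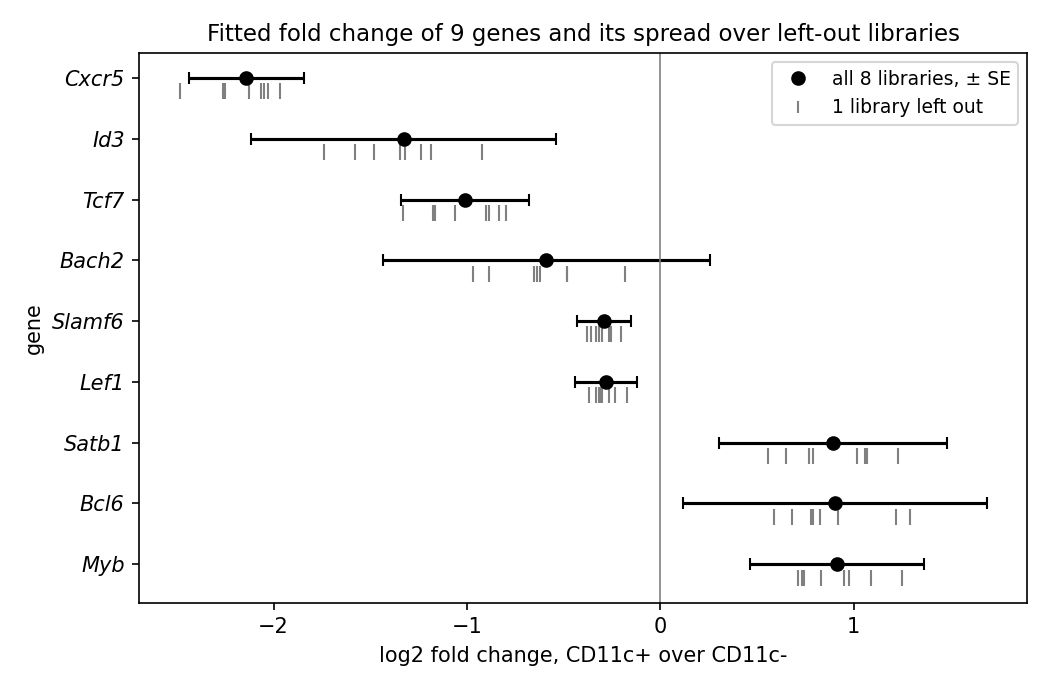
Fitted log2 fold change (x axis, CD11c+ over CD11c-) of each gene with its standard error, and the values with 1 library left out as grey ticks. Signs were kept in all fits shown, with 6 genes on the negative side, from Cxcr5 at -2.14 to Lef1 at -0.28, and 3 on the positive side near 0.90.

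Of the 9 genes, 6 had lower and 3 had higher fitted levels in CD11c+ cells, and their median log2 fold change was -0.29, where 48.3% of all tested genes were negative and the median of all tested genes was 0.01. The 3 with higher fitted levels, Bcl6, Satb1 and Myb, were not called. As the members were chosen with these values known, the split is a description and bears neither way on whether they form a joint program, and the genes are called by their own names here.

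To set levels between genes on 1 scale, CPM were divided by the length of the longest coding transcript of each gene in GENCODE M21, whose build (GRCm38) is not that of the files (mm9). In CD11c+ cells the order was Slamf6 (37.3 CPM per kb ± 6.01), Lef1 (26.5 ± 2.50), Tcf7 (22.4 ± 10.1), Cxcr5 (9.89 ± 4.38), Myb (4.08 ± 1.32), Id3 (3.88 ± 3.01), Bcl6 (1.73 ± 1.17), Satb1 (1.72 ± 0.679) and Bach2 (0.606 ± 0.476), each as mean ± SD of 4 libraries. Neighbours in this order had overlapping libraries except Slamf6 and Lef1, Cxcr5 and Myb, and Satb1 and Bach2. In CD11c- cells Slamf6 (45.7 ± 4.83), Tcf7 (45.1 ± 17.6), Cxcr5 (43.7 ± 11.5) and Lef1 (32.2 ± 5.60) formed a top group in which each neighbour overlapped the next. Id3 followed at 9.81 ± 2.51, apart from both Lef1 above it and Myb below it (2.16 ± 1.09), and Satb1, Bcl6 and Bach2 lay between 0.912 and 0.928 CPM per kb with overlapping libraries. Cxcr5 thus sat beside Tcf7 and Slamf6 in CD11c- cells and below the libraries of Slamf6 and Lef1 in CD11c+ cells.

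Whether the genes moved together from library to library was examined after each subset was centred on its own mean of log2(CPM + 1), so that the CD11c difference played no part. The permutation p values below take all libraries as independent, and may be too small if same-numbered libraries share a source. Over 36 pairs and 8 libraries, 20 Pearson correlations were positive and 16 negative, with a median of 0.09. The closest pair was Lef1 and Myb, with r = 0.92 (exact permutation test within subsets, two-sided p = 0.00174, adjusted p = 0.0625) and rho = 0.93 (exact permutation p = 0.00347, adjusted p = 0.125), and r = 0.80 without the 2 libraries farthest from the Lef1 median. No pair passed an adjusted p of 0.05 in either measure, and 2 pairs had an unadjusted p under 0.05 for r. A permutation within subsets can give no p below 0.00174, so 1 pair alone among 36 cannot pass. The second of these pairs, Tcf7 and Id3, was negative, with r = -0.71 (exact permutation p = 0.0417, adjusted p = 0.547), rho = -0.55 (exact permutation p = 0.243, adjusted p = 0.739) and r = -0.64 without the 2 libraries farthest from the Tcf7 median. Tcf7 and Slamf6 had r = 0.73 (exact permutation p = 0.0608, adjusted p = 0.547), rho = 0.67 (exact permutation p = 0.132, adjusted p = 0.739) and r = 0.97 without 2 libraries. Cxcr5 and Tcf7 had r = -0.14 (exact permutation p = 0.804, adjusted p = 0.939), rho = -0.21 (exact permutation p = 0.653, adjusted p = 0.917) and r = 0.33 without 2 libraries. Bcl6 and Id3 had r = 0.90 (exact permutation p = 0.0799, adjusted p = 0.575), rho = 0.79 (exact permutation p = 0.0642, adjusted p = 0.739) and r = 0.79 without 2 libraries, and both are at their lowest in CD11c+ replicate 1, with 2 reads and 0 reads.

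**Figure D3:**
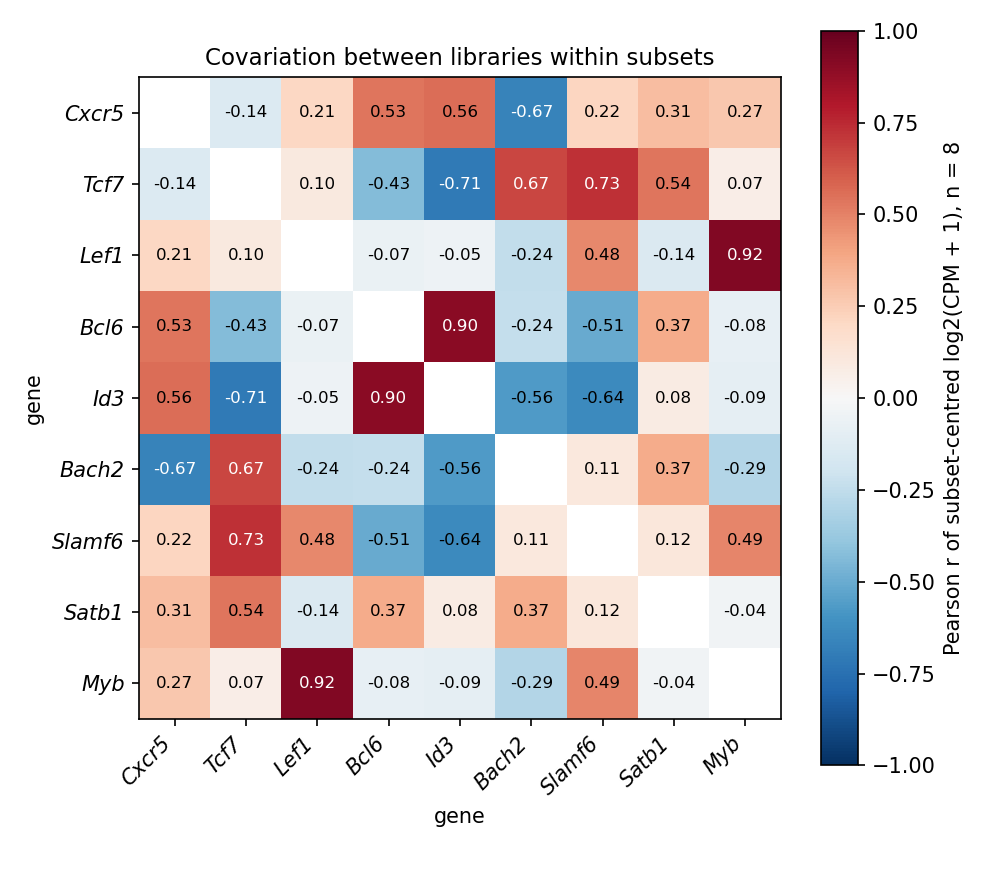
Pearson r between each pair of the 9 genes across 8 libraries, computed on log2(CPM + 1) after centring each subset on its own mean (red positive, blue negative). Positive and negative cells are mixed (20 and 16 pairs), and the darkest cells are Lef1 with Myb (0.92) and Bcl6 with Id3 (0.90).

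The genes whose pattern over the 8 libraries was most like that of Cxcr5, among 6269 named genes with a mean of at least 20 CPM, were Bmp7, Rhoh, Adk, Apobec2 and Plxdc1. Their Pearson r of log2(CPM + 1) ran from 0.96 for Bmp7 to 0.93 for Plxdc1, and within subsets from 0.55 (Adk) to 0.76 (Plxdc1). Bmp7, a secreted ligand of the TGF-beta family, averaged 12.9 CPM ± 1.88 in CD11c+ against 33.5 ± 4.87 in CD11c- cells (SD, n = 4 each), and Rhoh, a GTPase-deficient adaptor of T cell receptor signalling, at 211 CPM ± 11.9 in CD11c+ libraries and 253 ± 8.80 in CD11c- libraries. As likeness over 2 subsets follows the subset difference, these r are a description of 8 libraries that share that split. The genes most like Tcf7 were Tec, Jak1, Tmem59, Tprgl and Fbxw2, with r from 0.97 (Tec) to 0.94 (Fbxw2) and from 0.90 (Tmem59) to 0.96 (Fbxw2) within subsets. Jak1, the kinase of common gamma chain and interferon receptors, had a mean of 860 CPM ± 144 in CD11c+ libraries and of 1043 ± 171 in CD11c- libraries, and Tec, a kinase downstream of antigen receptors, at 32.3 CPM ± 5.11 in CD11c+ libraries and 45.8 ± 12.7 in CD11c- libraries.

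Other genes of the pathways were read from lists, with levels given as mean ± SD of the 4 libraries of each subset. Of 24 tested follicular T cell genes, 0 passed by edgeR (6 had an unadjusted p under 0.05, where 4.7% of all tested genes did). The log2 fold change was below 0 for 14 and above 0 for 10, median -0.16, where 48.3% of all tested genes were below 0. DESeq2, with an adjusted p for 19 of them, and limma voom each called 1, Tox2, lower. Tox2, a TOX family factor that works with BCL6 in follicular helper cells, had a mean of 26.5 CPM ± 9.25 in CD11c+ libraries and of 63.5 ± 10.9 in CD11c- libraries (log2 fold change -1.26, SE 0.26, edgeR adjusted p = 0.2). Gpr183, the oxysterol receptor that positions cells at follicle borders, was at 89.1 CPM ± 30.9 in CD11c+ libraries and 144 ± 45.6 in CD11c- libraries (edgeR adjusted p = 0.99). Tox, a relative of Tox2, was at 279 CPM ± 89.9 in CD11c+ libraries and 434 ± 112 in CD11c- libraries (edgeR adjusted p = 0.961). Pdcd1, which encodes PD-1, was at 473 CPM ± 168 in CD11c+ libraries and 701 ± 154 in CD11c- libraries (edgeR adjusted p = 0.991). Il21, the follicular helper cytokine, had 2 reads over all 8 libraries, and Ascl2, a factor that starts Cxcr5 expression in helper T cells, had 0.

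Of 21 tested naive and memory precursor genes, 1 passed lower by edgeR and 0 higher, where 0.0199% of all tested genes were called lower. The log2 fold change was below 0 for 16 and above 0 for 5, median -0.18, where 48.3% of all tested genes were below 0. An unadjusted p under 0.05 by edgeR was reached by 4, and by 4.7% of all tested genes. The edgeR call was lost without CD11c+ replicate 1, 2 or 4 or CD11c- replicate 1, 3 or 4, where the count was 0. Cd27, a costimulatory receptor of naive and memory cells, had a mean of 463 CPM ± 42.0 in CD11c+ libraries and of 572 ± 95.3 in CD11c- libraries (edgeR adjusted p = 0.991). Ccr7, the lymph node homing receptor, was at 17.5 CPM ± 1.45 in CD11c+ libraries and 28.2 ± 17.0 in CD11c- libraries (edgeR adjusted p = 0.991). Socs3, an inhibitor of cytokine signalling, was at 30.1 CPM ± 3.21 in CD11c+ libraries and 44.6 ± 5.12 in CD11c- libraries (edgeR adjusted p = 0.99). The most abundant of the list, Ikzf1 (704 CPM ± 76.8 in CD11c+ libraries and 761 ± 70.9 in CD11c- libraries) and the chemokine receptor gene Cxcr3 (363 CPM ± 59.8 in CD11c+ libraries and 420.5 ± 95.3 in CD11c- libraries), were not called. Among 6 naive T cell surface receptors, 1 passed lower, the same gene. S1pr1, the receptor for exit from tissues, was at 340.0 CPM ± 49.7 in CD11c+ libraries and 403 ± 56.3 in CD11c- libraries. Cd28 was at 213 CPM ± 50.7 in CD11c+ libraries and 239.6 ± 52.1 in CD11c- libraries. Xcl1, a chemokine that stem-like CD8 T cells secrete, went the other way, at 56.4 CPM ± 13.5 in CD11c+ libraries and 26.7 ± 7.61 in CD11c- libraries (log2 fold change 1.075, SE 0.27, edgeR adjusted p = 0.526), and was called higher by DESeq2. Il7r, whose protein CD127 was gated out, was at 8.27 CPM ± 6.83 in CD11c+ libraries and 3.83 ± 2.38 in CD11c- libraries.

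Next came the partners of TCF-1 and LEF1. Of 19 tested Wnt and TCF/LEF cofactors, 0 passed by edgeR or limma voom, DESeq2 called 0 of the 10 to which it gave an adjusted p, 1 had an unadjusted p under 0.05 by edgeR, and the median log2 fold change was 0.04. The gene with the unadjusted p under 0.05 was Tle4, a Groucho-type corepressor that binds TCF-1, with a mean of 41.1 CPM ± 17.1 in CD11c+ libraries and of 23.2 ± 3.80 in CD11c- libraries (edgeR adjusted p = 0.99). Gsk3b, the kinase that marks β-catenin for decay, was at 173 CPM ± 20.3 in CD11c+ libraries and 142 ± 24.5 in CD11c- libraries. Its partner in that task Csnk1a1 was at 270.3 CPM ± 28.5 in CD11c+ libraries and 277 ± 24.7 in CD11c- libraries. Ctnnbip1, an inhibitor of β-catenin, was at 9.75 CPM ± 6.59 in CD11c+ libraries and 17.2 ± 5.30 in CD11c- libraries. Ctnnb1, which encodes β-catenin, was at 156 CPM ± 28.4 in CD11c+ libraries and 165 ± 20.2 in CD11c- libraries. Axin2, a direct target of the Wnt pathway, was at 9.17 CPM ± 6.44 in CD11c+ libraries and 14.7 ± 3.51 in CD11c- libraries (log2 fold change -0.67, SE 0.56, edgeR adjusted p = 0.991). Cxcr5 lies at chr9:44511787-44561877 on the minus strand (GRCm38), and Bcl9l, a β-catenin cofactor gene on the other strand, shares 110 exon bases with it (3.30% of those of Cxcr5) in GENCODE M21. The level of Bcl9l was 32.9 CPM ± 12.8 in CD11c+ and 31.9 ± 6.33 in CD11c- cells, with a log2 fold change of 0.04 (SE 0.30), and without a stated strand setting reads of the shared stretch cannot be told apart.

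Of 16 tested E proteins, Id proteins and partners of BCL6, BACH2, SATB1 and MYB, 1 passed, the Id3 relative Id2. Over all tested genes 0.0298% were called higher. The log2 fold change was below 0 for 10 of the list and above 0 for 6, median -0.01, where 48.3% of all tested genes were below 0. An unadjusted p under 0.05 by edgeR was reached by 1, and by 4.7% of all tested genes. Id2 supports effector CD8 T cells where Id3 marks memory precursors, and it stood at 669, 568, 749.9 and 511 CPM in CD11c+ replicates 1 to 4, against 337, 324, 327 and 272 CPM in CD11c- replicates 1 to 4. All CD11c+ libraries were above all CD11c- libraries (log2 fold change 0.99, SE 0.13, edgeR adjusted p = 0.023). The E proteins that both inhibitors bind were not called, with Tcf3 at 116 CPM ± 56.1 in CD11c+ libraries and 129 ± 42.8 in CD11c- libraries (edgeR adjusted p = 0.992) and Tcf12 at 41.1 CPM ± 8.57 in CD11c+ libraries and 38.2 ± 14.7 in CD11c- libraries (edgeR adjusted p = 0.993). Tcf4, the third E protein, was at 1.48 CPM ± 1.98 in CD11c+ libraries and 3.05 ± 0.197 in CD11c- libraries. The corepressor gene Ncor1 was at 136 CPM ± 35.8 in CD11c+ libraries and 119 ± 2.80 in CD11c- libraries. The deacetylase gene Hdac3 was at 121 CPM ± 7.35 in CD11c+ libraries and 127 ± 25.4 in CD11c- libraries. Zbtb7a was at 129.9 CPM ± 26.0 in CD11c+ libraries and 144 ± 30.9 in CD11c- libraries. The Myb relative Mybl2 was at 31.4 CPM ± 9.49 in CD11c+ libraries and 38.2 ± 8.40 in CD11c- libraries. Of 10 tested opposing effector regulators, Id2 alone rose by edgeR, where 0.0298% of all tested genes were called higher. The log2 fold change was above 0 for 9 and below 0 for 1, median 0.12, where 48.3% of all tested genes were below 0. An unadjusted p under 0.05 by edgeR was reached by 3, and by 4.7% of all tested genes. DESeq2 called 3 of the regulators higher, of 9 with an adjusted p, and limma voom 2. Tbx21, which encodes T-bet, had a mean of 349 CPM ± 26.3 in CD11c+ libraries and of 227 ± 19.0 in CD11c- libraries (edgeR adjusted p = 0.085). Zeb2, a repressor of memory genes, was at 43.7 CPM ± 12.0 in CD11c+ libraries and 16.3 ± 4.74 in CD11c- libraries (edgeR adjusted p = 0.215). Prdm1, which encodes the BCL6 antagonist BLIMP1, was at 186 CPM ± 40.7 in CD11c+ libraries and 158 ± 44.9 in CD11c- libraries (edgeR adjusted p = 0.991). Bhlhe40 was at 575.8 CPM ± 192 in CD11c+ libraries and 535 ± 136 in CD11c- libraries and Runx3 at 252 CPM ± 22.6 in CD11c+ libraries and 249 ± 21.0 in CD11c- libraries. The call of Id2 was lost without CD11c+ replicate 1 or 3 or any 1 CD11c- library, where both counts were 0.

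**Figure D4:**
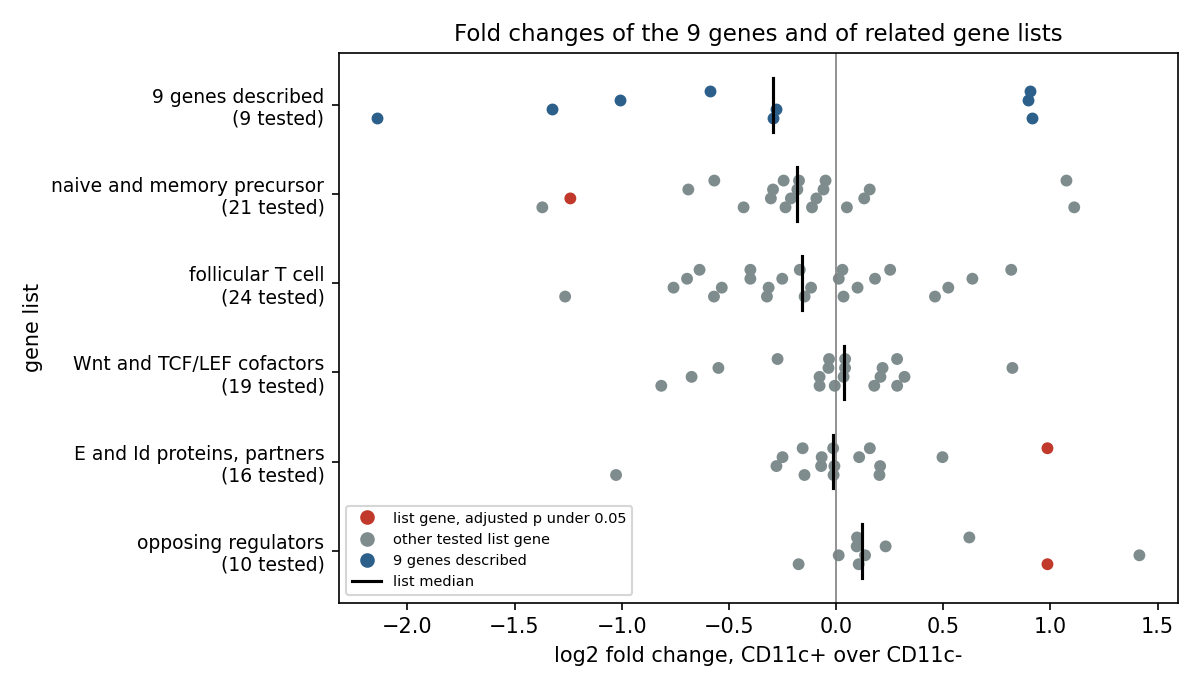
Log2 fold change (x axis, CD11c+ over CD11c-) of the 9 genes (blue) and of every tested gene of 5 related lists, with list genes past an adjusted p of 0.05 in red and list medians as black lines. The 9 genes spread from -2.14 to 0.91, and single genes of the lists from -1.37 (Nsg2) to 1.42 (Zeb2). The median of the 9 genes is -0.29, and the list medians lie between -0.18 and 0.12.

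Transcripts of other cell types were read from 3 more lists. The summed level of 10 markers of CD4 T cells and other T lineages was 7.16 to 18.0 CPM in CD11c+ and 2.04 to 18.6 CPM in CD11c- libraries, with Sox13, Il4 and Il17a at 0 reads in every library. The summed level of 13 myeloid and dendritic cell markers was 97.95 to 535 CPM in CD11c+ and 103 to 264 CPM in CD11c- libraries, highest in CD11c+ replicate 3, and that of 10 liver parenchyma and endothelium markers was 17.8 to 34.0 CPM in CD11c+ and 26.2 to 44.7 CPM in CD11c- libraries. Satb1 and Bcl6 had their highest level in CD11c+ replicate 3. Among CD11c- libraries the myeloid and dendritic sum was highest in replicate 3 (264 CPM). Bcl6 was highest there too (5.27 CPM), while Satb1 was highest in CD11c- replicate 1 (9.47 CPM). Without CD11c+ replicate 3 the log2 fold changes were 0.65 for Satb1, 0.59 for Bcl6, -0.97 for Bach2, -1.24 for Id3, 0.95 for Myb, -2.13 for Cxcr5, -1.06 for Tcf7, -0.27 for Lef1 and -0.30 for Slamf6. The part of the myeloid transcripts in these values was not tested.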

How the data were processed

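The data are deposited raw counts of reads per gene symbol for 4 CD11c+ and 4 CD11c- libraries of sorted liver CD8 T cells. Per the labels' protocols, cDNA was amplified by a modified SMART-seq2 method, tagged with Nextera XT and read from 1 end over 50 bp. The submitters' processing notes name bcl2fastq, TopHat2 2.0.8b, HTSeq and build mm9, with neither annotation nor strand setting stated. Rows that name no gene stayed out of library sizes: reads in no gene were 65.1% ± 1.66 (SD, n = 8) of uniquely placed reads, and alignments at several places 52.0% ± 1.07 of all rows.

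Within-subset library pairs differed beyond read sampling (chi-square per degree of freedom of at least 9.43), so none was taken for 1 library deposited again. Repeat libraries of 1 mouse could differ as much. The test was the quasi-likelihood F test of edgeR 4.0.16 under R 4.3.3, after filterByExpr and TMM scaling, with Benjamini-Hochberg adjustment over 10073 genes. SE is the size of the log2 fold change divided by the root of F. In 3 simulations over 10073 genes, each with 200 genes changed, 41% of genes changed 2-fold and 73.7% of those changed 4-fold were called. The simulations gave 264 calls together, where the data gave 5. The adjustment is stricter where fewer genes differ, so these shares may be too high for this comparison. Correlations used all 576 permutations within subsets. Intervals and floors cover counting error only.

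The members and lists (163 entries in 10 lists, 162 matched by symbol or synonym) were chosen with earlier results of these data known. The text names all 9 members and, from the related lists, the genes past the threshold, the 3 next by p and the 2 next by CPM; Cxcl13, Il21, Ascl2, Axin2, Bcl9l, Tcf3, Tcf12, Ms4a1, Pax5, Cd4 and Cd8a were named after their values were seen. Some genes, 1 of those called lower among them, are not reported here. Alternatives were RLE factors, library size only, other filters, a replicate block, each library left out, DESeq2 1.42.0, limma 3.58.1 voom, legacy=FALSE, a threshold of 0.01 and, for correlations, a pseudocount of 0.5 in place of 1 CPM.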

Additional observations from a re-analysis of the deposited data

Results flagged for a closer look

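Bcl6 in CD11c- replicate 3, at 5.27 CPM, stood apart from the other CD11c- libraries, which lay between 2.41 and 2.82 CPM. Of 28 groups of 4 libraries examined for such gaps, this was the 1 found, where chance gives about 1 in 20 groups. That library also had all 9 genes above their own median of the 8 libraries. Its summed level of myeloid and dendritic cell markers was the highest of the CD11c- libraries (264 CPM), and the part of this in the Bcl6 value was not tested.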

How the results depend on the processing

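All 144 fold changes of the 9 genes under alternatives kept their sign, and 142 were within 1 SE of the value reported. Bach2 ranged widest in proportion, from -1.34 with limma voom to -0.18 without CD11c+ replicate 2. With all genes, 5 calls became 12 with no filter, 8 with at least 5 CPM in 4 libraries, 11 with legacy=FALSE, 32 with DESeq2, 19 with limma voom and 1 at a threshold of 0.01, and ranged from 1 to 5 with 1 library left out. Of the 9 genes 1 passed, 0 at a threshold of 0.01, and 0 to 1 with 1 library left out (0 in 6 of 8 fits). The naive and memory precursor list had 2 calls with DESeq2, the follicular list 1 with DESeq2 and 1 with limma voom, and the opposing regulators 3 with DESeq2 and 2 with limma voom. At a threshold of 0.01 the naive and memory precursor, naive surface receptor, E and Id protein and opposing regulator lists each had 0 calls, and with 1 library left out 0 to 1. The cause was not tested.

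Same-numbered libraries of the subsets correlated in their deviations at 0.0964 to 0.19, with 1 pair under the limit of 0.1, and the labels state no pairing. All 8 libraries correlated best with their own number, a hint from the data only. With the replicate block 13 genes were called, 11 higher and 2 lower, among them 1 of the 9 genes. The count of correlated pairs is no test of stability, since so few permutations let no single pair pass. At 2 to 55 reads (Bcl6) and 0 to 54 reads (Bach2), depth limits what can be said of low genes.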
